A study of Mus musculus with 9 samples.

Results

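The genes described here are 9 mouse genes for making and sensing eicosanoids, the signalling lipids derived from arachidonic acid: Hpgds, Ptgs1, Ptgs2, Ptger2, Ptger4, Ptgdr, Alox5, Alox5ap and Ltb4r1. Each gene was read from the array rows that carry its symbol and no other, and the row of highest mean was taken where there were several. Of the 9 genes, 8 had values in this way, among 22180 genes in all. Ptgs1 is not analysed here.

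Arachidonic acid is released from membrane phospholipids by phospholipases A2. The cyclooxygenases, encoded by Ptgs1 and Ptgs2, convert it to prostaglandin H2, from which terminal synthases such as the hematopoietic prostaglandin D synthase encoded by Hpgds make the individual prostanoids, while 5-lipoxygenase with its activating protein starts the leukotriene branch. In the gut, prostaglandin E2 made by epithelial and stromal cells reaches lymphocytes through receptors that raise cyclic AMP, and Hpgds itself is best known from mast cells, T helper 2 cells and, in the intestine, tuft cells.

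Gene expression was measured on Affymetrix Mouse Gene 2.0 ST arrays in γδ T cells, the T cells with an antigen receptor of γ and δ chains, from C57BL/6 mice. There were 3 subsets of 3 arrays each: intraepithelial lymphocytes of the intestine (IELs, described as small intestine), Type-1 cells of peripheral lymph nodes and Naive-like cells of peripheral lymph nodes. The labels give no transgene, deletion or treatment for any subset, and do not state the age of the mice, the gates that define the subsets or whether an array is 1 mouse or a pool. Tissue and subset therefore cannot be told apart in any comparison with IELs. Each sample title puts the word biological before its replicate number, without saying which mice were used. A p-value here measures only spread between these samples.

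Over the 22180 genes, the correlation between arrays was 0.947 to 0.982 within a subset, against 0.912 to 0.975 between subsets. All levels are log2 values, differences carry their standard error, and each subset has n = 3 arrays. Precision is limited by the number of arrays, a difference having a standard error of 0.24 for the median gene. The array reports a level only relative to the same gene on other arrays, so differences are compared within a gene. Where levels of different genes are ranked, summed or called high, the comparison is rough. Of 11 marker genes listed for γδ T cells 5 had values, and these were high in every subset: Cd3g lay at 11.70 to 12.32 in IELs, 10.69 to 11.27 in Type-1 cells and 11.20 to 11.64 in Naive-like cells, while Cd3e, Cd3d and Ptprc averaged between 10.62 and 11.72 in each subset. Cd3g and Zap70, an antigen receptor kinase gene, passed as higher in IELs against Type-1 cells. The listed genes of the γ and δ receptor chains had no values, so these 5 do not separate γδ from other T cells.

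Hpgds and Ptger4 were higher in IELs than in either lymph node subset, and these were the only 2 of the 8 genes that passed the test in any comparison. In IELs, Hpgds was 5.64-fold above Naive-like cells and 6.21-fold above Type-1 cells. Ptger4, which encodes the prostaglandin E2 receptor EP4, was 6.72-fold above Naive-like cells and 8.98-fold above Type-1 cells. For IELs against Naive-like cells this is 2 of 8 genes, or 25%, where 5.19% of all genes passed, with limma's test and a Benjamini-Hochberg adjusted p under 0.05. For IELs against Type-1 cells it is again 2 of 8, where 5.14% of all genes passed. The 2 comparisons share the IEL arrays and are not independent of each other. These genes were chosen with earlier results of these data known, so the shares describe the list and test nothing about it. For Type-1 against Naive-like cells limma called 0 of the 8 genes, and 0 had an unadjusted p under 0.05, where 0.284% of all genes were called.

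Over the 8 genes, the median difference was 0.14 for IELs minus Naive-like cells, 0.02 for IELs minus Type-1 cells and -0.12 for Type-1 minus Naive-like cells. Over all 22180 genes these medians were -0.01, -0.03 and 0.03. Arrays of IELs and Naive-like cells did not overlap for 3 of the 8 genes (Hpgds, Ptgs2 and Ptger4), against 20.1% of all genes. Between IELs and Type-1 cells the same held for 3 genes (Hpgds, Ptger4 and Ptgdr) against 19.8%, and between Type-1 and Naive-like cells for 1 gene, Alox5, against 11.4%.

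The promoter windows of the genes that passed are shown because Hpgds and Ptger4 moved together between subsets and because these windows differ in composition. Each runs from 250 bases before to 50 bases after the transcription start in RefSeq's annotation of GRCm38.p6, 5′ to 3′ on the strand of the gene, and capitals mark the motif match found. Hpgds lies on the minus strand at chr6:65144681-65144980, and Ptger4 on the minus strand at chr15:5244138-5244437.
Hpgds: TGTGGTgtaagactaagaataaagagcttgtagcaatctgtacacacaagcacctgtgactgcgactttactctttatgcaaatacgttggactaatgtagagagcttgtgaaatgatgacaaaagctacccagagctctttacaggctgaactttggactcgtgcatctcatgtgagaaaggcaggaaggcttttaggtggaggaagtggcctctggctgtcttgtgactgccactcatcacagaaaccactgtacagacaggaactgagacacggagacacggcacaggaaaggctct
Ptger4: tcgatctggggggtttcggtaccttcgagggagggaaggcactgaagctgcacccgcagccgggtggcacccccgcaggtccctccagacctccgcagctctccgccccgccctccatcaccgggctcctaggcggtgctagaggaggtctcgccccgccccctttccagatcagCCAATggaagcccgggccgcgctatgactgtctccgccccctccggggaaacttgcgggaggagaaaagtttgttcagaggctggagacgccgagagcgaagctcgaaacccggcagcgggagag
The Hpgds window is 46.7% G or C with 5 CpG dinucleotides, below the median of 52.7% over 32851 mouse promoter windows. The Ptger4 window is 67.0% G or C with 25 CpG dinucleotides. The capitals in the Hpgds window mark TGTGGT, the core letters of the Runx motif, at its first 6 bases. In the Ptger4 window they mark CCAAT, the CCAAT box, at bases 176 to 180.

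Both strands of the windows were searched for 8 motifs, and a match is only a description of letters. TGTGGT stands in 16.8% of all promoter windows and, of the 8 members with a window (all but Alox5ap), in those of Hpgds, Ltb4r1 and Ptgs2. CCAAT stands in 37.4% of all windows and in those of Ptger2 and Ptger4, and the E-box CACGTG in 7.2% of all windows and in that of Ptgs2. The TATA box letters TATAAA (13.6% of all windows), the GATA letters AGATAA (11.2%), the T-box letters TCACACCT (1.3%), the AP-1 letters TGANTCA (7.8%) and the cyclic AMP response element TGACGTCA (1.8%) stand in none of the 8 windows. Hpgds and Ptger4 thus share none of the searched motifs in these windows. By position, Ptgdr and Ptger2 are neighbours on chromosome 14 with 0 protein-coding genes between them, and neither passed the test.

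Hpgds encodes the glutathione-dependent enzyme that isomerises prostaglandin H2 to prostaglandin D2 in blood cells. Its level was 6.19, 5.97 and 6.35 on the IEL arrays, 3.74, 3.55 and 3.33 on the Type-1 arrays and 4.04, 3.43 and 3.56 on the Naive-like arrays. Every IEL array lay above every lymph node array, and the lymph node subsets overlapped. The means were 6.17 ± 0.19 in IELs, 3.54 ± 0.21 in Type-1 cells and 3.68 ± 0.32 in Naive-like cells (SD, n = 3).

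The difference was 2.50 ± 0.22 for IELs minus Naive-like cells (95% interval 2.02 to 2.97, limma adjusted p = 2.2e-05), the gene ranking 206 of 22180 by absolute difference. For IELs minus Type-1 cells it was 2.64 ± 0.22 (2.16 to 3.11; limma adjusted p = 1.8e-05), rank 142. Type-1 and Naive-like cells could not be separated, with a difference of -0.14 ± 0.22 and an interval of -0.62 to 0.34. Because cells were profiled in bulk, fewer cells of a type and less RNA per cell cannot be told apart, for Hpgds or for any gene below.

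Ptgs2, the inducible cyclooxygenase that makes the substrate of Hpgds, did not pass in any comparison. It measured 3.24, 3.44 and 3.79 on the IEL arrays, 3.34, 3.39 and 3.06 on the Type-1 arrays and 3.10, 3.22 and 2.91 on the Naive-like arrays. All 3 IEL arrays lay above the Naive-like arrays, by as little as 0.01 within the set of arrays numbered 9 to 12 in the descriptions, and IELs and Type-1 cells overlapped. The difference between IELs and Naive-like cells was 0.41 ± 0.21, with an interval of -0.04 to 0.86 (limma adjusted p = 0.42). IELs minus Type-1 cells was 0.23 ± 0.21 (-0.23 to 0.68), and Type-1 minus Naive-like cells was 0.18 ± 0.21 (-0.27 to 0.64).

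**Figure D1:**
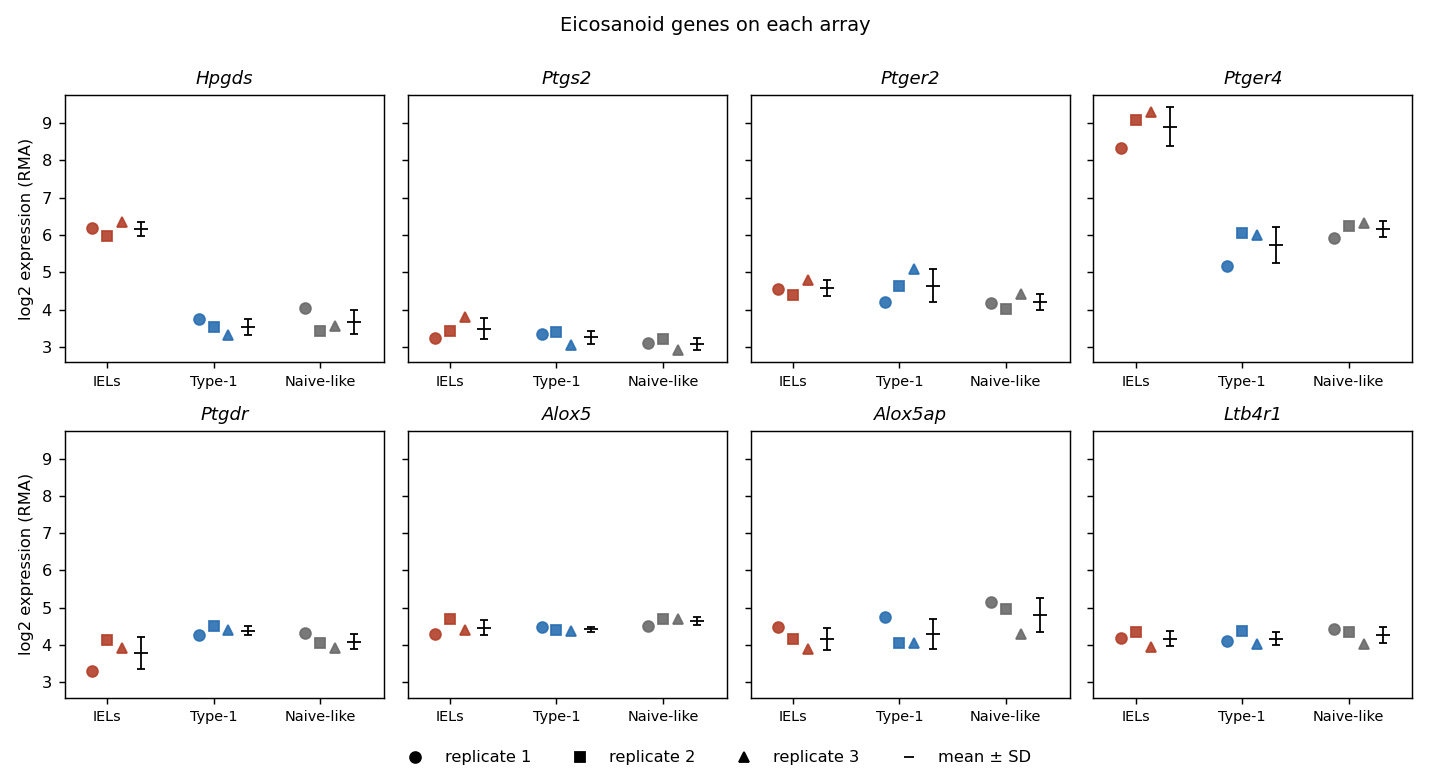
Log2 expression of the 8 genes on each of the 9 arrays, by subset; symbols stand for the replicate number and the bars for the mean ± SD of 3 arrays. Hpgds lies between 5.97 and 6.35 in IELs and at 4.04 or below elsewhere, Ptger4 at 8.33 or above in IELs and at 6.32 or below elsewhere, while none of the other 6 genes passed in a comparison.

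Among the receptors, Ptger4 encodes EP4, a receptor for prostaglandin E2 that couples to cyclic AMP production. It measured 8.33, 9.08 and 9.31 on the IEL arrays, 5.18, 6.05 and 5.99 on the Type-1 arrays and 5.91, 6.25 and 6.32 on the Naive-like arrays. The IEL arrays stood apart by about 2 or more on the log2 scale from every lymph node array, whose ranges overlapped. The means were 8.91 ± 0.51 in IELs, 5.74 ± 0.48 in Type-1 cells and 6.16 ± 0.22 in Naive-like cells (SD, n = 3).

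For Ptger4 the difference was 2.75 ± 0.30 for IELs minus Naive-like cells (interval 2.10 to 3.39; limma adjusted p = 0.00011, rank 159). For IELs minus Type-1 cells it was 3.17 ± 0.30 (2.52 to 3.81; limma adjusted p = 4.7e-05, rank 77). Type-1 minus Naive-like cells gave -0.42 ± 0.30, with an interval of -1.07 to 0.23 that reaches both sides of 0.

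Ptger2 encodes EP2, the other cyclic AMP-coupled receptor for prostaglandin E2, and it did not pass where Ptger4 did. Its level was 4.56, 4.38 and 4.80 in IELs, 4.22, 4.63 and 5.08 in Type-1 cells and 4.18, 4.00 and 4.42 in Naive-like cells, and all 3 subsets overlapped. IELs minus Naive-like cells was 0.38 ± 0.24 (interval -0.15 to 0.90), and IELs minus Type-1 cells was -0.06 ± 0.24 (-0.59 to 0.46). Type-1 minus Naive-like cells was 0.44 ± 0.24 (-0.08 to 0.97).

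Ptgdr encodes DP1, a receptor for prostaglandin D2, the product of Hpgds. It measured 3.32, 4.13 and 3.93 on the IEL arrays, 4.27, 4.50 and 4.39 on the Type-1 arrays and 4.32, 4.05 and 3.91 on the Naive-like arrays. All IEL arrays lay below all Type-1 arrays, but the difference of -0.60 ± 0.23 (interval -1.10 to -0.09) did not pass (limma adjusted p = 0.21, unadjusted p = 0.024). IELs minus Naive-like cells was -0.30 ± 0.23 (-0.81 to 0.20), and Type-1 minus Naive-like cells was 0.30 ± 0.23 (-0.21 to 0.80). A second, dimmer row of Ptgdr gave -0.42 for IELs minus Type-1 cells and 0.07 for IELs minus Naive-like cells.

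**Figure D2:**
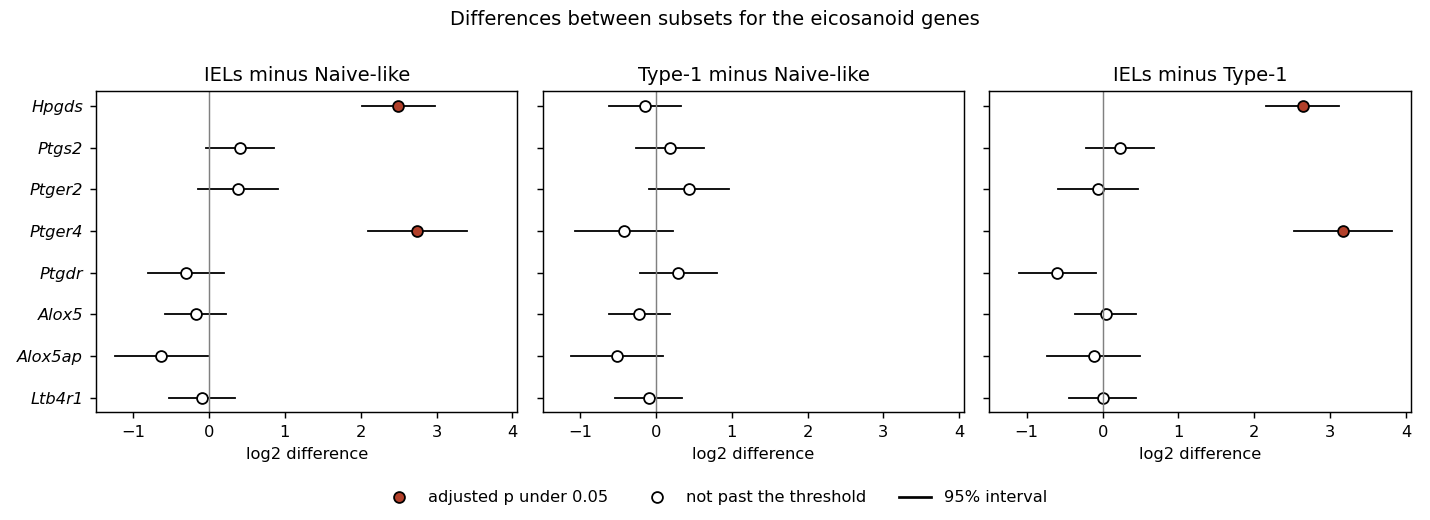
Log2 difference between subsets for each gene, as a point with its 95% interval, in 3 panels; filled points had an adjusted p under 0.05. Hpgds and Ptger4 stand at 2.50 and 2.75 for IELs minus Naive-like cells and at 2.64 and 3.17 for IELs minus Type-1 cells, and no point is filled for Type-1 minus Naive-like cells.

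In the leukotriene branch, no member passed in any comparison. Alox5 encodes 5-lipoxygenase, the enzyme that begins leukotriene synthesis. Its level was 4.30, 4.69 and 4.40 in IELs, 4.49, 4.39 and 4.38 in Type-1 cells and 4.51, 4.71 and 4.69 in Naive-like cells. The Type-1 arrays lay below the Naive-like arrays, with a difference of -0.22 ± 0.18 (interval -0.62 to 0.18), and IELs overlapped with both. IELs minus Naive-like cells was -0.17 ± 0.18 (-0.57 to 0.23), and IELs minus Type-1 cells was 0.04 ± 0.18 (-0.36 to 0.44).

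Alox5ap encodes the 5-lipoxygenase activating protein, which presents arachidonic acid to the enzyme. It measured 4.48, 4.15 and 3.89 on the IEL arrays, 4.75, 4.05 and 4.06 on the Type-1 arrays and 5.16, 4.96 and 4.29 on the Naive-like arrays. The subsets overlapped, with IEL values toward the low end and Naive-like values toward the high end. IELs minus Naive-like cells was -0.63 ± 0.28 (interval -1.24 to -0.02; limma adjusted p = 0.33, unadjusted p = 0.045). With arrays weighted by their fit this difference passed, at -0.84 (limma adjusted p = 0.039), the only setting of 24 in which a further member did so. A second row of Alox5ap gave -0.67 for the same comparison. IELs minus Type-1 cells was -0.12 ± 0.28 (-0.73 to 0.50), and Type-1 minus Naive-like cells was -0.51 ± 0.28 (-1.12 to 0.10).

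Ltb4r1 encodes BLT1, the high-affinity leukotriene B4 receptor that draws leukocytes to sites of inflammation. It measured 4.20, 4.35 and 3.96 in IELs, 4.11, 4.37 and 4.03 in Type-1 cells and 4.42, 4.34 and 4.03 in Naive-like cells, with all subsets overlapping. IELs minus Naive-like cells was -0.10 ± 0.20, with an interval of -0.53 to 0.34. The interval was -0.44 to 0.44 for IELs minus Type-1 cells and -0.53 to 0.34 for Type-1 minus Naive-like cells.

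Over the 6 members not called for IELs minus Naive-like cells, the intervals ran from -1.24 to 0.90. For IELs minus Type-1 cells those of the uncalled 6 ran from -1.10 to 0.68, and for the lymph node pair those of all 8 ran from -1.12 to 0.97. Differences of about 1 on the log2 scale are therefore not excluded for some of them.

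Sample numbers in the descriptions form 3 sets with 1 array of each subset, one of which also carries a date code, and both called genes were higher in IELs within each set. For Hpgds, IELs minus Naive-like cells was 2.80 within the date-coded set, 1.93 within the set numbered 5 to 8 and 2.76 within the set numbered 9 to 12, and IELs minus Type-1 cells was 3.03, 2.43 and 2.45. For Ptger4 the same differences were 2.99, 3.17 and 2.08 from Naive-like cells and 3.32, 3.03 and 3.15 from Type-1 cells. Hpgds and Ptger4 correlated across the 9 arrays at r = 0.94, but after the subset means were taken out the r was -0.42, so the common pattern lies between subsets. These values describe 9 arrays of 3 subsets and carry no test.

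Other genes of the eicosanoid pathway were read from 8 lists by role, with 80 genes listed and 71 measured. IELs differed from Naive-like cells in 4 of the 71 (3 higher, 1 lower), and from Type-1 cells in 5 (4 higher, 1 lower), against 5.19% and 5.14% of all genes. These are shares close to those of all genes. For Type-1 against Naive-like cells limma called 0 of the 71, and 3 had an unadjusted p under 0.05. The median difference over the 71 was 0.01 for IELs minus Naive-like cells, 0.04 for IELs minus Type-1 cells and 0.01 for the lymph node pair.

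None of the 21 measured genes for phospholipases A2 and arachidonate supply passed in any comparison. Lpcat3, which loads arachidonate into phospholipids, averaged 7.09 ± 0.49 in IELs, 7.63 ± 0.37 in Type-1 cells and 7.75 ± 0.35 in Naive-like cells (SD, n = 3), and its difference of -0.66 ± 0.29 for IELs minus Naive-like cells did not pass (limma adjusted p = 0.31, unadjusted p = 0.041). The 9 measured prostanoid synthases other than Hpgds also gave no call, and Cbr1, a carbonyl reductase that can convert prostaglandin E2, lay at 8.83 to 9.54 in IELs, 8.96 to 9.05 in Type-1 cells and 9.39 to 9.63 in Naive-like cells. All Type-1 arrays lay below all Naive-like arrays for Cbr1, but the difference of -0.48 ± 0.21 did not pass (limma adjusted p = 0.74, unadjusted p = 0.041). No call came from the 6 genes of prostanoid transport and breakdown, where Ptgr2, a prostaglandin reductase, averaged 5.93 in IELs, 5.94 in Type-1 cells and 5.92 in Naive-like cells. The 6 other lipoxygenases gave none either, and Alox15 averaged 4.06 in IELs, 4.14 in Type-1 cells and 4.27 in Naive-like cells.

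In the comparisons with IELs, the largest differences among the 71 genes were in receptors. Cysltr2, a receptor for the cysteinyl leukotrienes, was the 1 called of 6 other leukotriene and lipid mediator receptors. It measured 8.69, 8.80 and 9.64 on the IEL arrays, 6.68, 6.10 and 7.19 on the Type-1 arrays and 5.82, 5.97 and 5.86 on the Naive-like arrays. No subset overlapped with another for this gene. It rose in IELs by 3.16 ± 0.30 over Naive-like cells (8.91-fold; limma adjusted p = 4.1e-05) and by 2.39 ± 0.30 over Type-1 cells (5.22-fold; limma adjusted p = 0.00043). Type-1 minus Naive-like cells was 0.77 ± 0.30 and did not pass (limma adjusted p = 0.67). Within the description sets, in the order above, IELs minus Naive-like cells was 3.78, 2.97 and 2.72.

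Tbxa2r, the receptor for thromboxane A2, went the other way and was the 1 called of 4 other prostanoid receptors. Its level was 3.98, 5.18 and 4.90 in IELs, 6.45, 6.37 and 6.98 in Type-1 cells and 7.05, 6.31 and 7.02 in Naive-like cells. Each IEL array lay below each lymph node array, and Type-1 and Naive-like cells overlapped. The gene fell in IELs, with a difference of -2.10 ± 0.32 against Naive-like cells (limma adjusted p = 0.0016) and -1.91 ± 0.32 against Type-1 cells (limma adjusted p = 0.0035). Within the 6 arrays without the date code the difference from Type-1 cells was -1.83 and did not pass (limma adjusted p = 0.074).

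**Figure D3:**
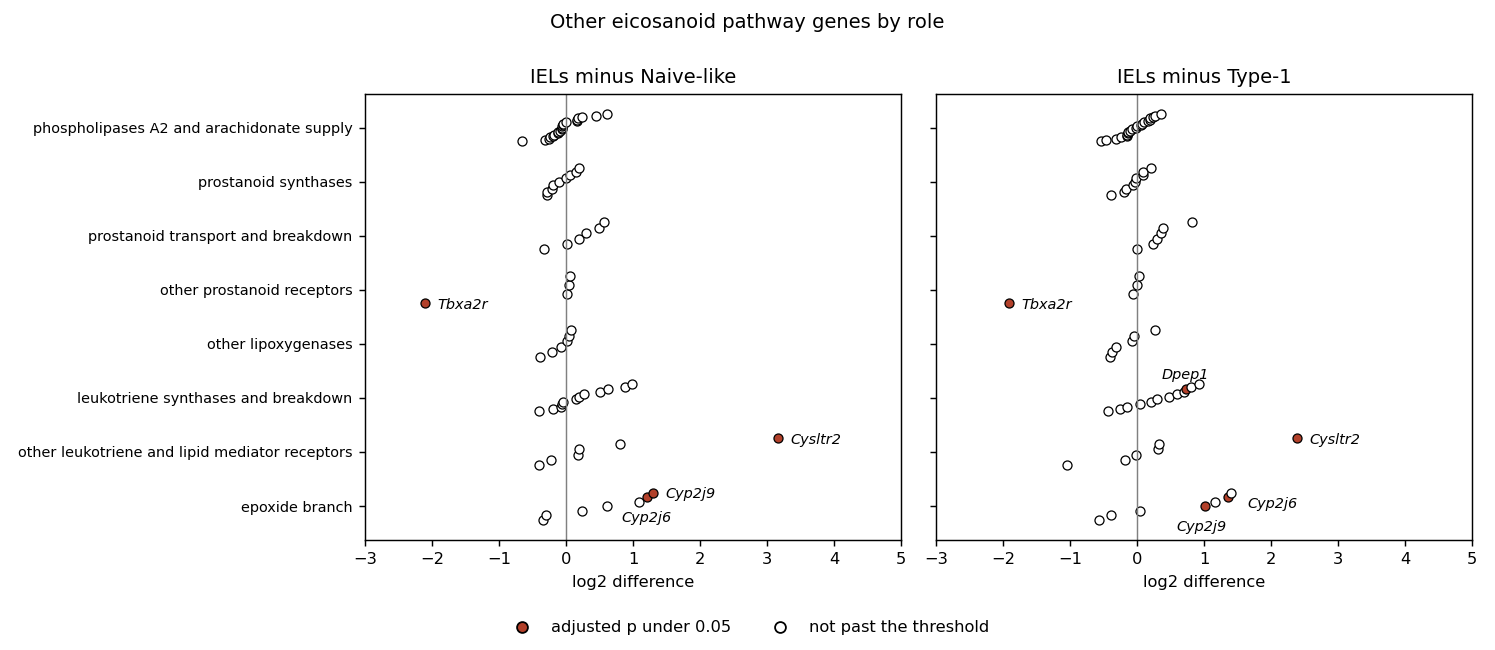
Log2 differences of the 71 measured pathway genes that are not members, in rows by role, for IELs minus Naive-like cells and IELs minus Type-1 cells; each point is 1 gene and filled points had an adjusted p under 0.05. Most points lie within 1 of 0, with Cysltr2 far to the right and Tbxa2r far to the left in both panels.

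In the epoxide branch, where cytochrome P450 enzymes and epoxide hydrolases act, 2 of 7 measured genes passed and both were higher in IELs. Cyp2j9, a cytochrome P450 of the 2J family, averaged 5.58 ± 0.11 in IELs, 4.56 ± 0.13 in Type-1 cells and 4.29 ± 0.11 in Naive-like cells (SD, n = 3). It rose by 1.29 ± 0.18 over Naive-like cells (limma adjusted p = 0.00075) and by 1.01 ± 0.18 over Type-1 cells (limma adjusted p = 0.0049). Its relative Cyp2j6 averaged 5.01 ± 0.35 in IELs, 3.66 ± 0.18 in Type-1 cells and 3.80 ± 0.23 in Naive-like cells (SD, n = 3).

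Cyp2j6 rose by 1.21 ± 0.23 over Naive-like cells and by 1.35 ± 0.23 over Type-1 cells (limma adjusted p = 0.0063 and 0.0034). These genes belong to a family of closely related copies, and the sources used here do not say how shared probes were treated. Within the 6 arrays without the date code, the differences of Cyp2j6 from Naive-like and Type-1 cells were 1.12 and 1.21 and did not pass (limma adjusted p = 0.14 and 0.099), nor did that of Cyp2j9 from Type-1 cells, at 0.94 (limma adjusted p = 0.0997).

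Of 12 measured genes for leukotriene synthesis and breakdown, Dpep1 passed for IELs against Type-1 cells. It encodes a membrane dipeptidase that cleaves leukotriene D4. It measured 5.91, 5.74 and 5.65 on the IEL arrays, 5.03, 4.99 and 5.10 on the Type-1 arrays and 4.99, 5.30 and 5.14 on the Naive-like arrays. All IEL arrays lay above the rest. The difference was 0.72 ± 0.18 from Type-1 cells (limma adjusted p = 0.038) and 0.62 ± 0.18 from Naive-like cells (limma adjusted p = 0.079). The call against Type-1 cells was lost in 15 of 24 other settings.

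**Figure D4:**
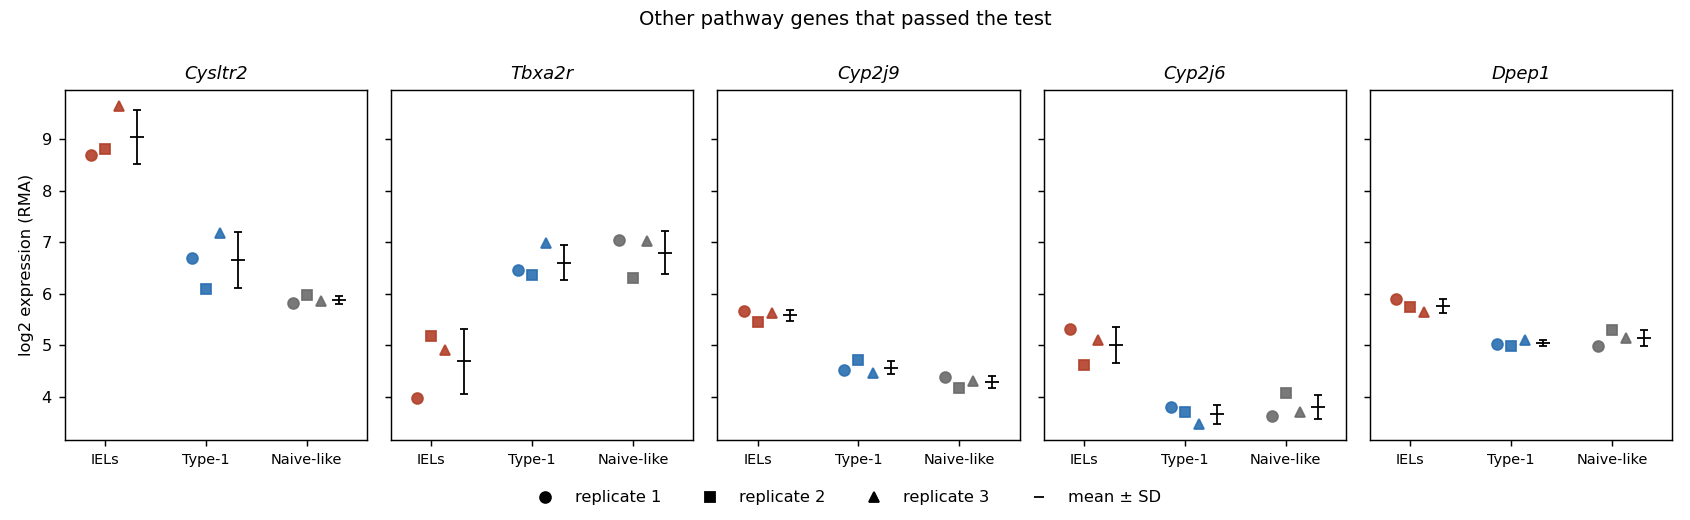
Log2 expression on each array of the 5 other pathway genes that passed in at least 1 comparison, by subset, with the mean ± SD of 3 arrays. Cysltr2, Cyp2j9, Cyp2j6 and Dpep1 are highest on the IEL arrays, and Tbxa2r is lowest there.

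Transcripts of intestinal epithelium, taken as a list, were also higher in IELs than in either lymph node subset. Of 26 epithelial markers, 18 passed as higher in IELs against Naive-like cells and 17 against Type-1 cells, with median differences of 1.65 and 1.58. Between the lymph node subsets limma called 0 of 26, and 1 had an unadjusted p under 0.05. The mean over the 26 was 5.54 to 6.37 on the IEL arrays, 4.01 to 4.16 on the Type-1 arrays and 3.97 to 4.21 on the Naive-like arrays. On the linear scale their summed level was 1788 to 3428 in IELs, 509 to 548 in Type-1 cells and 485 to 560 in Naive-like cells.

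Among them, the adhesion protein gene Cdh1 averaged 8.57 ± 0.80 in IELs, 5.11 ± 0.36 in Type-1 cells and 4.86 ± 0.44 in Naive-like cells (SD, n = 3). The fatty acid binding protein gene Fabp1 averaged 7.60 ± 1.02 in IELs, 3.10 ± 0.33 in Type-1 cells and 4.38 ± 1.15 in Naive-like cells. Reg3b and Lgals4 were higher in IELs too, by 3.57 and 1.88 over Naive-like cells and by 3.21 and 1.61 over Type-1 cells. The part of epithelial transcripts in the differences of Hpgds, Ptger4, Cysltr2, Cyp2j6, Cyp2j9 and Dpep1 was not tested.

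Tuft cells and mast cells are among the cell types known for Hpgds. No marker list for T helper cells was read. None of the 15 measured tuft cell markers was called by limma in any comparison, and none had an unadjusted p under 0.05. Their mean was 4.07 to 4.35 in IELs, 4.38 to 4.45 in Type-1 cells and 4.27 to 4.40 in Naive-like cells. Their summed linear level, to which Plcb2 adds most, was 392 to 602, 602 to 830 and 594 to 794. The defining tuft cell kinase gene Dclk1 averaged 3.30 in IELs, 3.39 in Type-1 cells and 3.35 in Naive-like cells, and the transcription factor gene Pou2f3 averaged 2.81, 2.91 and 2.89. Plcb2, a taste signalling phospholipase gene, averaged 7.99 in IELs, 8.61 in Type-1 cells and 8.62 in Naive-like cells, while Trpm5, Il25 and Tas1r3 averaged 4.79 to 5.22 in IELs, 4.60 to 5.52 in Type-1 cells and 4.83 to 5.42 in Naive-like cells.

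Of 14 mast cell and basophil markers only Kit, the stem cell factor receptor gene, passed. Kit averaged 9.94 ± 1.05 in IELs, 5.50 ± 0.89 in Type-1 cells and 6.07 ± 0.51 in Naive-like cells (SD, n = 3), a rise of 3.87 and 4.44 in IELs over Naive-like and Type-1 cells. The mean over the 14 was 3.48 to 3.64 in IELs, 3.21 to 3.32 in Type-1 cells and 3.15 to 3.24 in Naive-like cells, and their summed linear level, Kit included, was 569 to 1831, 149 to 194 and 165 to 208. Besides Kit, 1 marker had an unadjusted p under 0.05: Cpa3, the mast cell carboxypeptidase gene, averaged 4.02 ± 0.25 in IELs, 3.59 ± 0.47 in Type-1 cells and 3.44 ± 0.26 in Naive-like cells (SD, n = 3). Its IEL arrays lay above all Naive-like arrays, with a difference of 0.58 ± 0.26 (limma adjusted p = 0.33, unadjusted p = 0.045). Its part in the Hpgds difference was not tested. The protease gene Tpsb2 averaged 4.05 in IELs, 4.10 in Type-1 cells and 3.95 in Naive-like cells, the protease gene Mcpt8 3.66 in IELs, 3.46 in Type-1 cells and 3.64 in Naive-like cells, and the receptor gene Fcer1a 2.35 in IELs, 2.32 in Type-1 cells and 2.17 in Naive-like cells.

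Markers of macrophages and dendritic cells (15 measured), of neutrophils and eosinophils (10) and of B cells (6) gave no call by limma in any comparison. In each comparison with IELs, 1 gene of the first list had an unadjusted p under 0.05, with 0 in the other lists. Against Naive-like cells it was Lyz2, 0.99 ± 0.44 higher in IELs (limma adjusted p = 0.33, unadjusted p = 0.045). Against Type-1 cells it was H2-Ab1, 1.66 ± 0.75 higher (limma adjusted p = 0.29, unadjusted p = 0.046). The macrophage and dendritic cell list averaged 4.29 to 4.48 in IELs, 4.13 to 4.55 in Type-1 cells and 3.95 to 4.67 in Naive-like cells. H2-Ab1, of the class II antigen presentation genes, averaged 7.30 ± 0.36 in IELs, 5.64 ± 1.23 in Type-1 cells and 5.94 ± 1.76 in Naive-like cells (SD, n = 3). Naive-like replicate 2, at 7.97, lay above every IEL array for this gene. The means of Cd68, Cx3cr1 and H2-Aa were 5.02 to 6.12 in IELs, 4.37 to 6.07 in Type-1 cells and 4.26 to 6.01 in Naive-like cells. The granulocyte genes Csf3r, Epx, Prg2 and Cxcr2 averaged 3.49 to 4.10 in IELs, 3.87 to 4.15 in Type-1 cells and 3.54 to 4.13 in Naive-like cells. Of the B cell genes, Cd79b averaged 6.47 in IELs, 6.18 in Type-1 cells and 6.36 in Naive-like cells, with Cd22, Pax5 and Cd79a at 3.63 to 3.85 in IELs, 3.48 to 4.14 in Type-1 cells and 3.68 to 4.04 in Naive-like cells. The files carry no detection calls, so no marker can be said to be at 0.

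**Figure D5:**
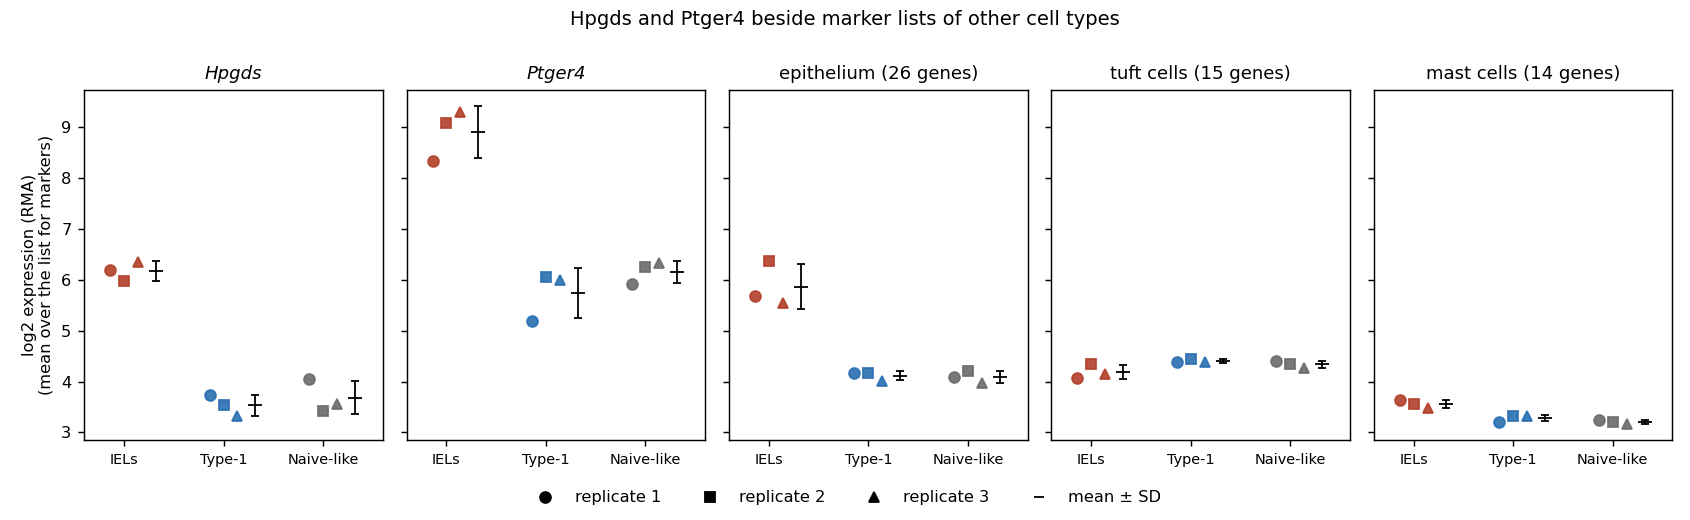
Log2 expression of Hpgds and Ptger4 on each array beside the mean log2 expression of the epithelial, tuft cell and mast cell marker lists, by subset, with the mean ± SD of 3 arrays. Epithelial markers lie at 5.54 to 6.37 on the IEL arrays and at 4.21 or below on all lymph node arrays, while tuft cell markers lie at 4.07 to 4.45 on all arrays.

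The genes whose pattern over the 9 arrays was most like that of the called members were sought among 1602 genes. In these the highest subset mean was above the median of all genes and at least 1 above the lowest. Closest to Hpgds were Scin, encoding the actin-severing protein scinderin (r = 0.989), Capn3, a calcium-dependent protease gene (0.989), Cpd, encoding carboxypeptidase D (0.988), Itgad, an integrin α chain gene (0.987), and Rgs16, a regulator of G protein signalling (0.986). Closest to Ptger4 were Gabarapl1, of the autophagy machinery (0.989), the kinase gene Bmp2k (0.988) and the transcription factor gene Irf4 (0.986). An r above 0.95 was reached by 97 genes for Hpgds and 109 for Ptger4. With subset means taken out, r was 0.47 to 0.82 for the 5 genes near Hpgds and 0.77 to 0.86 for the 3 near Ptger4. These genes were picked by r over the same arrays, so this second r is not independent of the first. The values are descriptions over 9 arrays that share their 3 subsets.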

How the data were processed

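Total RNA of 9 samples was measured on Mouse Gene 2.0 ST arrays, per the labels. The deposited table holds log2 expression values that the authors made with RMA in oligo, per the submitters' processing notes. Their versions, filters and the arrays processed jointly were not given in the sources used here. RMA compresses differences of dim genes. Of 41345 rows 23521 carried 1 gene symbol, 1814 several and 16010 none in the platform's annotation, and 23328 of the first were found by Entrez identifier in RefSeq's gene table of GRCm38.p6. Rows of 1 symbol gave 22180 genes, and the highest-mean row stood for a gene. Promoter windows came from RefSeq, matched by gene identifier for 8 of the 9 members.

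Groups came from the sample titles. The test was limma 3.58.1 (R 4.3.3) with a mean for each subset in 1 fit of the 9 arrays, contrasts and eBayes. It was two-sided, with p-values adjusted by Benjamini-Hochberg over the 22180 genes, and 0.05 was the threshold. The fit was tested on simulated data. Tables and plots used Python 3.11.15, pandas 2.3.3, numpy 2.4.6 and matplotlib 3.10.9. Members and lists were chosen with earlier results of these data known. Named besides the members are all called pathway genes, otherwise the one of highest mean in a list, the 4 markers of each list with the highest mean in IELs, defining markers, and the genes most correlated with a called member. Alternatives were a filter on dim genes, other centring, normalizations, spread models, array weights, other rows, a minimum difference, batch terms and arrays left out. For called genes that are no members they were chosen after seeing the data.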

Additional observations from a re-analysis of the deposited data

How the results depend on the processing

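The calls of Hpgds and Ptger4 for IELs against both lymph node subsets held in all 24 other settings, and no called difference changed sign. Hpgds ranged from 2.34 to 2.68 against Naive-like cells and from 2.44 to 2.74 against Type-1 cells (highest limma adjusted p 0.0049 and 0.0047), and Ptger4 from 2.55 to 3.04 and from 2.89 to 3.58 (0.011 and 0.0060). Among differences that never passed, 17 values changed sign. Other scalings left the median of all genes within 0.04 of 0. The number of genes called moved more. For IELs against Naive-like cells it was 1152, and 1920 with array weights, 250 with a minimum log2 difference of 1 and 534 without the date-coded arrays (826 to 1227 with 1 array left out). For Type-1 against Naive-like cells it was 63, and 14 and 20 under the last 2 of these settings, 34 to 87 with 1 array left out (34 without Naive-like replicate 3) and 110 without IEL replicate 1 and Type-1 replicate 3 together. For IELs against Type-1 cells it was 1140, and 204 and 565, and 724 to 1308 with 1 array left out (732 and 724 without IEL replicates 2 and 3). The cause of these shifts was not tested. With a minimum difference of 1 Tbxa2r, Cyp2j6 and Cyp2j9 did not pass in either comparison with IELs.

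With the replicate block, the number in the titles as a term, 1378 genes were called for IELs against Naive-like cells, 81 for the lymph node pair and 1405 for IELs against Type-1 cells. The members called numbered 2, 0 and 2. Deviations of same-numbered arrays of different subsets correlated at -0.01 to 0.38, over 0.1 in 6 of 9 pairs. For arrays of different numbers this was -0.29 to 0.21. The main fit had no term for the number or for the description set. Arrays of the same description set correlated at 0.07 to 0.38 and others at 0.12 at most, and with the set as a term 1397, 82 and 1452 genes and 2, 0 and 2 members were called in these comparisons. Ptgs2 and Ptgdr had no value under the filter on dim genes. With 3 arrays per subset and no detection calls, small differences of dim members cannot be resolved.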

Other observations

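The genes below were chosen after their values were seen. Several pathway genes had an unadjusted p under 0.05 in limma without passing the adjustment. In IELs against Naive-like cells, Lta4h, the hydrolase that makes leukotriene B4, was 0.98 ± 0.30 higher on the log2 scale (limma adjusted p = 0.10), Gpr132 0.80 higher (0.10), Cyp4f14 0.88 higher (0.13) and Cyp2c65 1.09 higher (0.12). In IELs against Type-1 cells, Ephx1, the microsomal epoxide hydrolase, was 1.40 ± 0.39 higher (limma adjusted p = 0.065), Cyp2c65 1.16 higher (0.093) and Cyp4f14 0.92 higher (0.11). Zadh2 was 0.82 higher (0.14) and Mgst3 0.80 higher (0.15) in the same comparison. In the other direction, Cyp2c29 was lower in IELs than in Type-1 cells, with a difference of -0.57 (limma adjusted p = 0.20). None of these genes was called. Cyp2c65 measured 3.80, 4.04 and 2.41 on the IEL arrays, and the last lay within the Naive-like range of 2.06 to 2.59. Gpr31b measured 7.41 on the array of Type-1 replicate 1 and 4.32 to 5.09 on the other 8 arrays.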
